A study of Mus musculus with 12 samples.

Results

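The metallothioneins Mt1 and Mt2, the zinc-sensing transcription factor Mtf1 and 7 zinc transporters were followed in the lactating mammary gland of mice with and without butyrophilin 1a1 (Btn1a1). The 10 genes were listed by symbol and were chosen by measured differences between knockout (KO) and wild-type (WT) glands in these same libraries. Levels and differences between KO and WT are therefore given for them as a description, with no test. Of the 10 listed genes, 9 are among the 11834 genes of the deposited table. The tenth, Slc39a4, which encodes a zinc importer known from the intestine, was not analysed here.

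PolyA RNA was sequenced from 12 mammary glands, 1 library per mouse, of C57BL/6 mice in lactation 1. The KO group held 7 mice with the genotype Btn1a1-/-, and the WT group held 5 wild-type mice. Day 10 of lactation accounted for 3 WT and 5 KO glands, while WT replicates 2 and 3 came from days 9 and 11 and KO replicates 3 and 4 from days 8 and 11. Mutant mice were kept as heterozygote pairs, apart from the wild-type mice bred in harems, and 2 diets were in use with no record here of which mouse had which, so the parts of breeding, diet and genotype in a difference cannot be told apart. Values are log2 CPM, the log2 of a gene's reads after scaling each library to the same total. Btn1a1, the targeted gene, stood at 11.07 ± 0.09 log2 CPM in WT (SD, n = 5) and at 5.63 ± 0.30 in KO (SD, n = 7). Depth estimated from the spacing of low values ran from 17.1 to 30.4 M reads in WT and from 23.2 to 34.7 M in KO.

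Metallothioneins are small cysteine-rich proteins that bind zinc and copper and buffer the free metal of the cell. Mtf1 binds metal response elements in the promoters of Mt1, Mt2 and Slc30a1 when cellular zinc is high, and glucocorticoids, cytokines and oxidative stress are also known to raise metallothionein transcripts. Transporters of the ZnT family (Slc30a genes) move zinc out of the cytosol into vesicles or out of the cell, and those of the ZIP family (Slc39a genes) move it into the cytosol. The secreting mammary cell passes much zinc into milk, and losses of Slc30a2 in women and of Slc30a4 in the lethal milk mouse are known for zinc-poor milk.

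The coding sequences of Mt1 and Mt2 are shown because they are the genes on which the results turn and because they are paralogs whose reads could be shared. They come from the GENCODE M21 annotation of mm10, run from the start codon to the last codon before the stop, and have cysteine codons in capitals. Mt2 lies on chr8:94172664-94173568 and Mt1 on chr8:94179082-94180327, both on the plus strand, with 5513 bases between them and 3 exons in the transcript used for each.
Mt1: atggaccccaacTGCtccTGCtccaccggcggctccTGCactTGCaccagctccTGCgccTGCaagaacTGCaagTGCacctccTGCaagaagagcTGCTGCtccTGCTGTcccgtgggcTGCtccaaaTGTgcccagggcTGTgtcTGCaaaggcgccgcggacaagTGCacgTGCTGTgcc
Mt2: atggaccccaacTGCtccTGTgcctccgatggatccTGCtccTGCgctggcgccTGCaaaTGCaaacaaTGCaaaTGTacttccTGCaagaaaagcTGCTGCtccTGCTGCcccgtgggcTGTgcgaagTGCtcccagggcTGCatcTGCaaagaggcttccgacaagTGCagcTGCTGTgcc
Each sequence holds 61 codons, of which 20 (32.8%) encode cysteine, and all 20 stand at the same places in both genes. Over the 183 bases compared, 145 were identical (79.2%), and the longest exact run that both transcripts share was 20 bases. How many reads could fall on both genes was not tested, so the split between them is uncertain to that extent.

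Promoter windows are shown for the metallothioneins and for Slc30a1 and Slc30a4, the members whose windows or known regulation bear on metal response. They are RefSeq windows of GRCm38.p6, read 5′ to 3′ on the gene's strand and printed from 250 bases before to 30 bases after the RefSeq start. Capitals mark matches to the metal response element core, TGCACNC or TGCGCNC, searched on both strands.
Mt1, chr8:94178839-94179118, plus strand: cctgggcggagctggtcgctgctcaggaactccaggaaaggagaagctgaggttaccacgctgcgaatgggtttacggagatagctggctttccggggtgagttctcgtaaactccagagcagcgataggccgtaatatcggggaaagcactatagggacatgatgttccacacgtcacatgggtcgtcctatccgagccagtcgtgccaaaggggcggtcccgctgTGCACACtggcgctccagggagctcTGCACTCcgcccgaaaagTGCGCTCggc
Mt2, chr8:94172368-94172647, plus strand: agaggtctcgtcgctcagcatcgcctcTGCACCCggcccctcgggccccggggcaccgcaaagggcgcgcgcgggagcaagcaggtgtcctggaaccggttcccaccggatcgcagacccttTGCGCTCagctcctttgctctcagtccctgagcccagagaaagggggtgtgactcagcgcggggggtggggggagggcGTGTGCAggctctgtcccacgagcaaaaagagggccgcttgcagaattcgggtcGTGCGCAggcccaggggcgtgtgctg
Slc30a1, chr1:191906531-191906810, plus strand: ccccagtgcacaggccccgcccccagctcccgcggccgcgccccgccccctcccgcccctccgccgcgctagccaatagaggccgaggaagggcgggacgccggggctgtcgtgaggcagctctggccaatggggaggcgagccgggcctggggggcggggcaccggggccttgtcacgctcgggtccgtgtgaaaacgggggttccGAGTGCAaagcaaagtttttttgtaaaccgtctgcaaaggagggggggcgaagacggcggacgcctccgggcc
Slc30a4, chr2:122702634-122702913, minus strand: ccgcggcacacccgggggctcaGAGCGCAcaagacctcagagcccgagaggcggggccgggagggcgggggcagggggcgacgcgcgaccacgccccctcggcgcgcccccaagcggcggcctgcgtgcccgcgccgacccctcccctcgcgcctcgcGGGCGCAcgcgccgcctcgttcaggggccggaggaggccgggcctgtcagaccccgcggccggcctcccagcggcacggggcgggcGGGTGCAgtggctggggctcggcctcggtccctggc
Windows of 300 bases, to 50 bases after the start, were searched for the 8 members that matched by symbol, and Slc39a4 and Slc39a14 are named only. The Mt2 window held 4 matches, at -223, -128, -50 and +5 from the start, and 0.517% of all 32851 windows of that length held at least 4. The Mt1 window held 3, at -23, +3 and +21, and so did that of Slc30a4, at -228, -92 and -6, against 1.97% of all windows. Slc30a1 held 2, at -43 and, just past the printed end, at +31, and Slc30a2 held 2, at -214 and -200, against 7.11% of all windows. Slc30a5 held 1, as did 1 of the 2 windows of Slc39a8, against 25.7%, and none was in the Mtf1 window. The windows differ in base composition, with 81.7% G and C for Slc30a4, 67.7% for Mt2 and 60.7% for Mt1. The core of the antioxidant response element, TGACNNNGC, was found once each for Mt2, Slc30a1, Slc30a5 and 1 Slc39a8 window (12.4% of all windows), and the Stat palindrome TTCNNNGAA in none of the 9 windows (8.30% of all). A match describes letters and is not a shown binding site. The RefSeq starts of Mt1 and Mt2 differ from the GENCODE starts by 7 bases for Mt1 and 46 for Mt2. The searched windows ended at chr8:94179138 for Mt1 and chr8:94172667 for Mt2, before the first coding bases at 94179311 and 94172848. The sequence in between was not searched, so matches there to any of the motifs are not counted. Positions are relative to the RefSeq start and would shift with another start. For Slc30a2 and Mtf1 the RefSeq start lay 285 and 445 bases past the GENCODE start. For the Slc39a8 window with the metal response match it lay 378 bases past. These windows of Slc30a2, Mtf1 and Slc39a8 therefore lie wholly inside the annotated genes and do not cover the sequence before the GENCODE start.

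Both metallothioneins stood higher in KO glands than in WT glands, Mt2 by about an order of magnitude and Mt1 by a smaller factor, whereas Mtf1 and the 6 zinc transporters with values differed little. Mt2 encodes one of the broadly expressed metallothioneins. Its WT libraries held -0.31, -0.01, 0.73, 1.43 and 0.66 log2 CPM in replicates 1 to 5. The KO libraries ran from 2.76 in replicate 5 through a median of 3.53 to 4.89 in replicate 2. The 2 groups did not overlap, and the lowest KO library lay 1.33 above the highest WT library, replicate 4. The means were 0.50 ± 0.68 in WT (SD, n = 5) and 3.84 ± 0.81 in KO (SD, n = 7), a log2 difference of 3.33 (SE 0.41) or 10.1-fold. The authors' deposited table gives a log2 fold change of 3.42 for Mt2. In WT glands Mt2 was near the low end of the table, at 0.806 to 2.70 CPM and above 10.8% of all genes. Without read counts, no counting interval can be given for these low levels.

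Mt1 encodes the other broadly expressed metallothionein and had the higher CPM of the pair. Its WT libraries held 2.5, 3.04, 3.19, 3.80 and 3.78 log2 CPM in replicates 1 to 5. Its KO libraries ran from 4.13 in replicate 3 through a median of 4.77 to 5.62 in replicate 2. The groups did not overlap here either, but the gap between the nearest libraries was 0.33 and thus narrower than for Mt2. The means were 3.26 ± 0.55 in WT (SD, n = 5) and 4.79 ± 0.54 in KO (SD, n = 7), a log2 difference of 1.53 (SE 0.29) or 2.89-fold. The authors' deposited table gives 1.57 for Mt1. Among all genes of the table, 13 had a larger upward difference than Mt2 and 93 a larger one than Mt1.

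**Figure D1:**
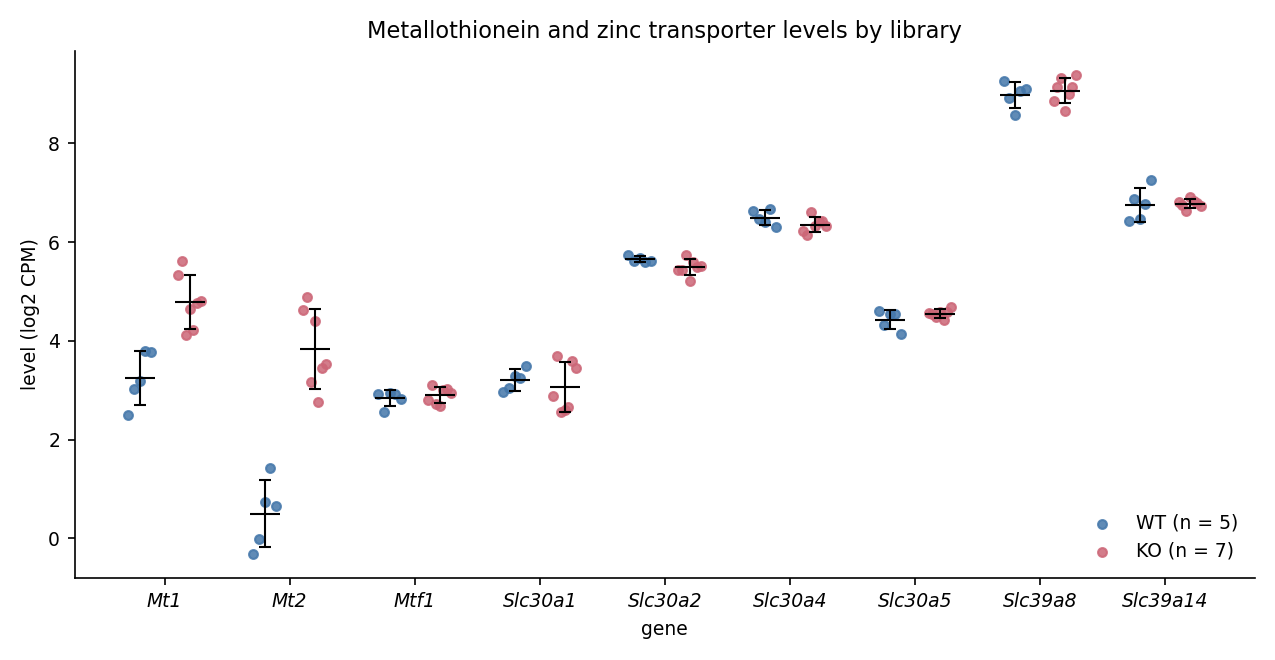
Levels of the 9 genes in log2 CPM (vertical axis) for each WT (blue, n = 5) and KO (red, n = 7) library, with the mean and SD in black. The KO points of Mt1 and Mt2 lie above all WT points, while the groups overlap for the other 7 genes.

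By the threshold used across the whole table (limma, adjusted p under 0.05), 2 of the 9 members were past it, both in the upward direction. With day 10 libraries alone Mt2 was past it and Mt1 was not, although the Mt1 difference was 1.60 there against 1.53 over all libraries. Across all 11834 genes the share was 9.36% in either direction, 4.84% upward and 4.52% downward. The same 2 members had no overlap between the groups, against 5.43% of all genes. Since the members were chosen on this contrast, nothing is read from their counts. The median difference over the 9 members was 0.06 on the log2 scale, and over all genes it was -0.03.

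Mt2 made up a larger part of the metallothionein pool in KO glands. Per kb of transcript (549 bases for Mt1 and 511 for Mt2), Mt2 was 13.3%, 11.5%, 16.4%, 17.2% and 11.0% of the sum of both in WT replicates 1 to 5. In KO the share ran from 28.0% in replicate 5 through a median of 35.7% to 47.6% in replicate 4. The groups did not overlap, with means of 13.9 ± 2.81% in WT (SD, n = 5) and 35.9 ± 6.91% in KO (SD, n = 7). By these lengths Mt1 stayed above Mt2 in each of the 12 libraries, and the mean log2 level per kb of Mt2 minus that of Mt1 was -2.65 in WT and -0.85 in KO. By the union of all annotated exons (1246 bases for Mt1, 588 for Mt2), a choice added after the data were seen, the mean shares of Mt2 were 24.1 ± 4.29% in WT and 52.1 ± 7.37% in KO (SD). Mt2 then lay above Mt1 in 4 of the 7 KO libraries and in none of the 5 WT libraries. Which gene is the more abundant in KO thus depends on the length used. The Mt1 union spans the whole gene and so counts the introns of the transcript of 549 bases. By the union too the groups stayed apart (19.6% to 29.1% in WT, 43.4% to 64.2% in KO).

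**Figure D2:**
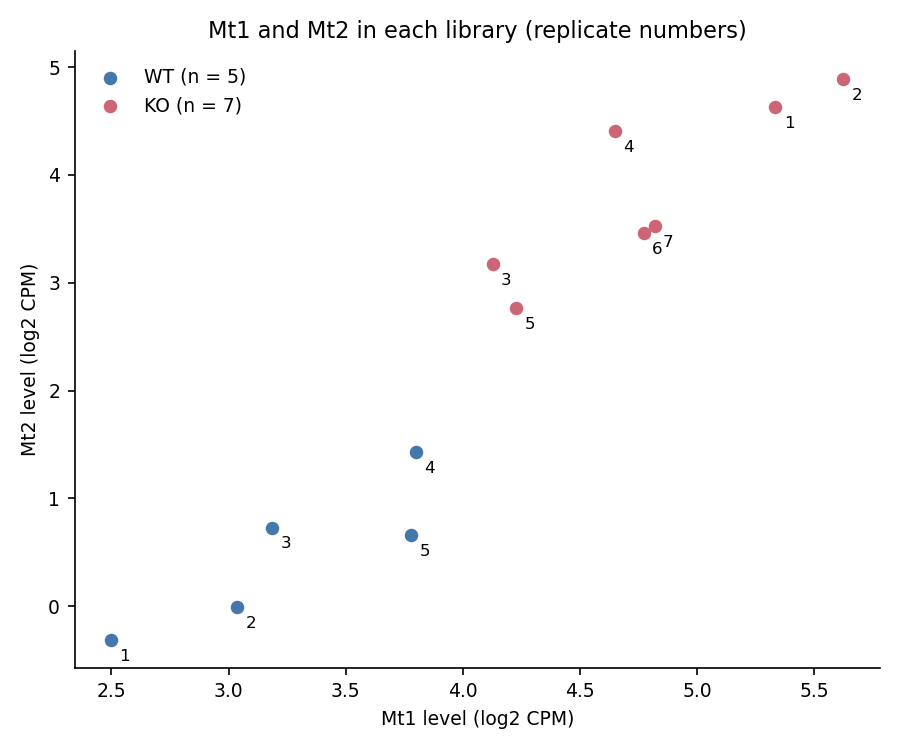
Level of Mt2 (vertical axis) against Mt1 (horizontal axis), both in log2 CPM, for each library, with replicate numbers beside the points. WT libraries (blue) fill the lower left and KO libraries (red) the upper right, with KO replicates 1 and 2 highest for both genes.

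In whole tissue, fewer cells of a type and less RNA per cell cannot be told apart, and markers of several cell types moved beside Mt1 and Mt2. All 8 skeletal muscle markers had a higher mean in KO, with a summed level of 63.8 to 453 CPM in WT and 95.4 to 1560 CPM in KO, though limma called none of the 8. With the mean of these markers as a covariate, the log2 difference of Mt1 was 1.42 and that of Mt2 was 3.04. All 8 macrophage markers were likewise higher on average, at a summed 51.0 to 68.7 CPM in WT and 58.9 to 88.1 CPM in KO. Of these, limma called 4, namely Cd68, C1qa, C1qb and Cx3cr1. Marker calls here stand against 9.36% called among all genes. Luminal secretory markers ran from 257000 to 258000 CPM in WT and from 257000 to 260000 CPM in KO. Of these 7, 4 were higher on average, with Krt8 and Epcam called higher. Elf5 was lower, at -0.25 (SE 0.09), and was not called. The luminal sum is carried by milk protein genes at the top of the table, whose values quantile normalization nearly fixes, so it cannot show whether the luminal share moved. Basal and myoepithelial markers ran from 405 to 534 CPM in WT and from 431 to 667 CPM in KO. Of these 7, 5 were higher on average, with Acta2, Cnn1 and Krt14 called higher. Fibroblast markers ran from 143 to 208 CPM in WT and from 143 to 393 CPM in KO, with 6 of 7 higher on average and none called. Adipocyte markers (202 to 370 CPM in WT, 194 to 345 CPM in KO) had 1 call of 7, Lep, which was higher. Of these 7, 4 were higher on average, and their median difference was 0.02. Endothelial markers (48.2 to 79.1 CPM in WT, 39.1 to 70.7 CPM in KO) had 1 call of 7, Kdr, which was lower, and 1 of the 7 was higher on average. The 2 B and plasma cell markers with values, of 6, summed to 10.0 to 34.7 CPM in WT and 4.95 to 46.0 CPM in KO with no call, and the 6 neutrophil and 6 T cell markers were not analysed here. Of these 11 marker calls, 10, all except that of Lep, ended when 1 library was left out, at an adjusted p of up to 0.116. Leaving out WT replicate 1 ended 9 of them, and that of Cx3cr1 ended without WT replicate 3. The part of these cell types in the metallothionein levels was not tested.

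Mtf1, on chr4:124802104-124849800, encodes the zinc-sensing activator of the metallothionein genes. Its WT libraries held 2.93, 2.57, 2.94, 2.94 and 2.82 log2 CPM. The KO libraries ran from 2.68 through a median of 2.95 to 3.10. The groups overlapped, and the difference was 0.06 (SE 0.10). An antisense gene with values of its own, 1110065P20Rik, overlaps Mtf1, and reads in the overlap may be assigned to either gene. No source used here says whether counting used strand. Reads in the overlap of Mt2 and its antisense partner Gm45774 (chr8:94170748-94173412) may likewise be assigned to either.

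Among the ZnT genes, Slc30a1 on chr1:191906767-191913247 encodes the exporter of the plasma membrane and is a textbook target of Mtf1. Its level was 2.96, 3.04, 3.30, 3.24 and 3.50 log2 CPM in WT replicates 1 to 5. In KO it ran from 2.56 in replicate 3 through a median of 2.89 to 3.70 in replicate 2. The KO libraries spread on both sides of WT, with 2 above all WT libraries, 4 below all of them and 1 within their range. The SD between KO libraries, 0.50, was 2.32 times that of WT, and the means differed by -0.14 (SE 0.21). KO replicates 2, 6 and 7 held at least 3.46, and the other 4 held at most 2.89.

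Slc30a2 on chr4:134343181-134354484 encodes the vesicular transporter of the secreting mammary cell. The WT libraries lay close together, at 5.75, 5.62, 5.68, 5.60 and 5.63 log2 CPM. The KO libraries ran from 5.22 in replicate 4 through a median of 5.50 to 5.74 in replicate 3. In KO, 5 of the 7 libraries lay below all WT libraries and 2 within the WT range, with a difference of -0.16 (SE 0.08). Slc30a4 on chr2:122681233-122702663, the gene mutated in the lethal milk mouse, held 6.62, 6.47, 6.41, 6.68 and 6.32 log2 CPM in WT. Its KO libraries ran from 6.15 in replicate 2 through a median of 6.33 to 6.60 in replicate 3. The groups overlapped, with 2 KO libraries below all WT libraries and a difference of -0.14 (SE 0.09). Both genes that serve zinc secretion into milk had a lower mean in KO, at 0.895-fold for Slc30a2 and 0.907-fold for Slc30a4, with overlapping libraries. Over all genes the median absolute difference was 0.165 on the log2 scale, larger than that of either gene.

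Slc30a5 on chr13:100802648-100833427 encodes a transporter of the early secretory pathway, where it supplies zinc to enzymes such as alkaline phosphatase. It held 4.61, 4.32, 4.54, 4.55 and 4.15 log2 CPM in WT and ran from 4.42 through a median of 4.57 to 4.69 in KO. Of the KO libraries, 6 lay inside the WT range, and the difference was 0.12 (SE 0.08).

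Of the ZIP genes described, Slc39a8 had the highest CPM of all members. Slc39a8 on chr3:135825279-135888572, an importer of zinc and manganese, held 9.26, 8.93, 8.57, 9.07 and 9.10 log2 CPM in WT. In KO it ran from 8.66 in replicate 4 through a median of 9.13 to 9.39 in replicate 7. The groups overlapped, with a difference of 0.08 (SE 0.14). Slc39a14 on chr14:70303469-70351425, an importer of zinc, iron and manganese known in liver as a target of interleukin-6, held 6.42, 6.87, 6.47, 6.78 and 7.26 log2 CPM in WT. In KO it ran from 6.62 through a median of 6.80 to 6.92, so that all 7 KO libraries lay inside the WT range. The difference was 0.02 (SE 0.12), and the SD between WT libraries was 3.58 times that between KO libraries, with WT replicate 5 the highest. The antisense gene 4933401H06Rik and the same-strand genes Gm43429 and Gm43428 overlap Slc39a8, 1700034H15Rik overlaps Slc30a1 and 4930417H01Rik overlaps Slc30a4, so that reads at these loci may be assigned to either gene of a pair.

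**Figure D3:**
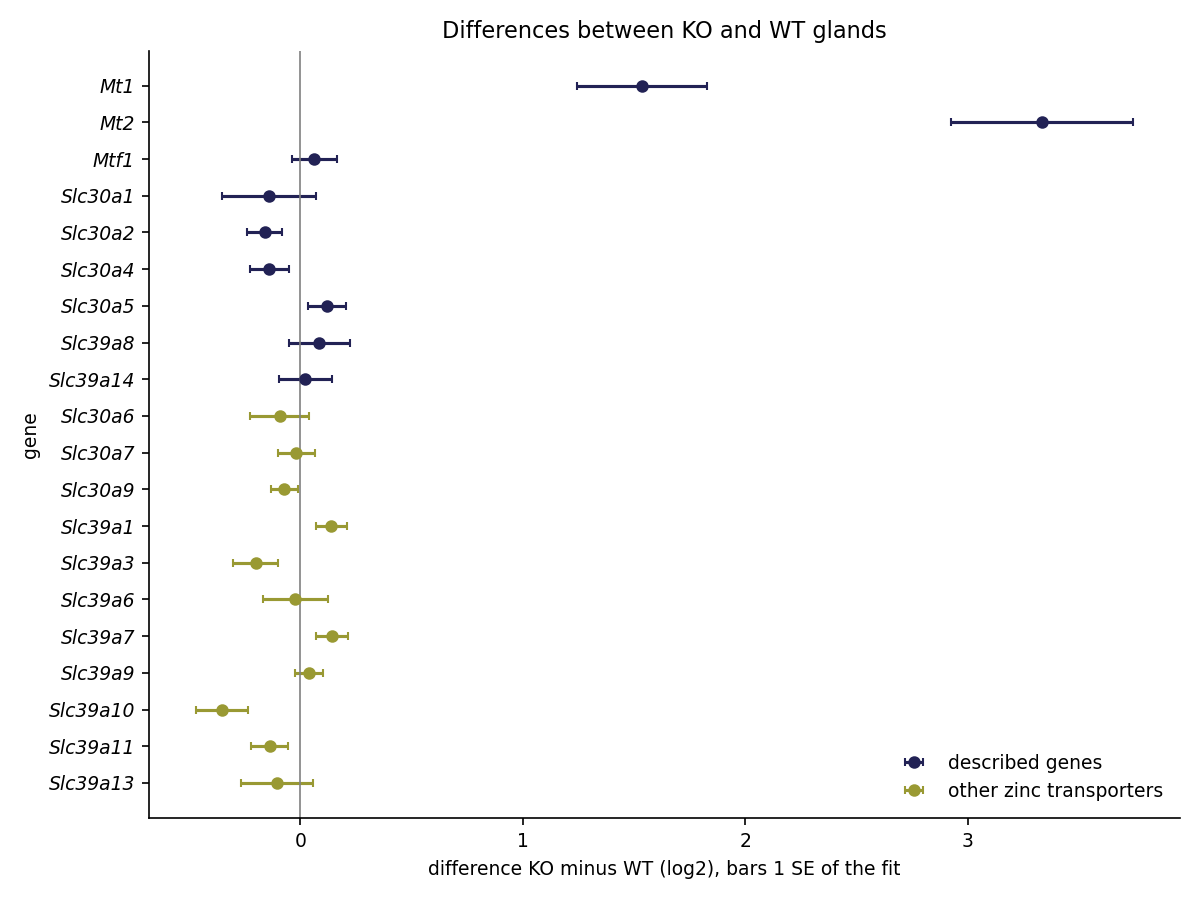
Difference KO minus WT on the log2 scale (horizontal axis), with bars of 1 SE, for the 9 members (dark) and 11 other zinc transporters (olive). Mt1 and Mt2 stand at 1.53 and 3.33, and the 18 others lie between -0.35 and 0.14.

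Levels of different genes were compared per kb of 1 annotated transcript, on the log2 scale. In WT the order was Slc39a8 (7.31), Slc39a14 (5.69), Slc30a2 (4.64), Mt1 (4.13), Slc30a4 (4.05), Slc30a5 (2.77), Mt2 (1.47), Slc30a1 (0.82) and Mtf1 (-0.09). Mt1 overlapped in range with both its neighbours, Slc30a2 and Slc30a4, and Mt2 overlapped with Slc30a1 although it was the higher in each of the 5 libraries. The remaining neighbours were apart in every WT library. In KO the order was Slc39a8 (7.39), Slc39a14 (5.71), Mt1 (5.66), Mt2 (4.80), Slc30a2 (4.48), Slc30a4 (3.91), Slc30a5 (2.88), Slc30a1 (0.68) and Mtf1 (-0.03). There Mt1 overlapped with Slc39a14, being the lower of the pair in 4 of the 7 libraries, and Slc30a1 overlapped with Mtf1. Mt2 overlapped with Mt1 and with Slc30a2, and it lay above Slc30a2 in only 3 of the 7 libraries. By the group means at these lengths Mt2 took place 7 of 9 in WT and place 4 in KO, and Mt1 places 4 and 3. Which isoforms these glands use is not known here, and the order depends on the lengths. By the union of all annotated exons, the WT order began with Slc39a8 (6.05), Slc30a4 (4.04), Slc30a2 (3.82), Slc39a14 (3.36) and Mt1 (2.94), followed by Slc30a5 (1.57), Mt2 (1.27), Slc30a1 (0.82) and Mtf1 (-0.32). In KO the union lengths put Mt2 (4.60) at place 2 and Mt1 (4.48) at place 3, and Slc39a14 (3.38) at place 6. Slc39a8 came first and Mtf1 last in both groups by either length.

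**Figure D4:**
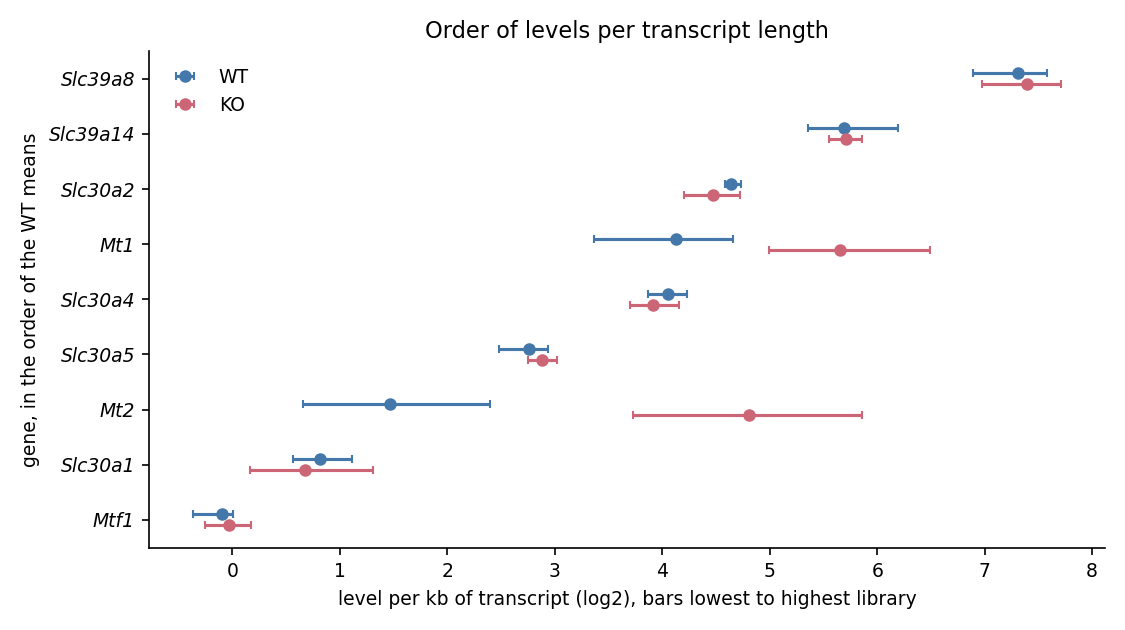
Mean level per kb of transcript on the log2 scale (horizontal axis) in WT (blue) and KO (red), with bars from the lowest to the highest library, for the 9 genes in the order of their WT means. For the 7 genes other than Mt1 and Mt2 the WT and KO bars overlap.

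Of the 18 other zinc transporters listed, 11 had values, and limma called none of them, against 9.36% of all genes. An unadjusted p under 0.05 was found for 1 of the 11, against 26.6% of all genes, and the statistics of the authors' deposited table also called 0. That gene was Slc39a10, an importer known as a target repressed by Mtf1, with a log2 difference of -0.35 (SE 0.12) and an adjusted p of 0.0723. With lactation day as a covariate its adjusted p was 0.0428. Next in size were Slc39a3 at -0.20 (SE 0.10), Slc39a7 at 0.14 (SE 0.07), a Golgi and endoplasmic reticulum transporter, and Slc39a1 at 0.14 (SE 0.07), a plasma membrane importer. Slc39a11 stood at -0.14, Slc39a13 at -0.11 and Slc30a6, the partner of Slc30a5, at -0.09. Slc30a9 stood at -0.07, Slc39a6 and Slc30a7 both at -0.02 and Slc39a9 at 0.04. Of the 11, 3 had a positive difference, and the median was -0.07. The other metallothioneins of the mouse, Mt3 and Mt4, were not analysed here.

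Other genes described as targets of Mtf1 were also measured. Of 6, limma called 2, both higher in KO, against 9.36% of all genes in either direction. Csrp1, a LIM domain protein, rose by 0.62 (SE 0.13, adjusted p = 0.0110) and lay above all WT libraries in 6 of 7 KO libraries. Sepw1, a selenoprotein, rose by 0.78 (SE 0.20, adjusted p = 0.0280), also in 6 of 7. The call of Csrp1 held without each library in turn but ended with the muscle markers as a covariate (0.53, adjusted p = 0.0548). The call of Sepw1 ended when WT replicate 1 or 5 or KO replicate 1 or 2 was left out, at an adjusted p of up to 0.0745. The median difference of the 6 was -0.08. The list includes Slc39a10, the repressed target counted above, and Gclc, which is also in the oxidative stress list. Its median thus mixes induced and repressed targets. Of 4 ectoenzymes loaded with zinc in the secretory pathway, limma called none, with 1 at an unadjusted p under 0.05, Nt5e (0.48, SE 0.19, adjusted p = 0.129), and with Alpl, alkaline phosphatase, at 0.06 (SE 0.13) and Enpp3 at -0.11 (SE 0.07).

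Among genes of other metals, limma called 1 of 9 for copper and 3 of 13 for iron and manganese, against 9.36% of all genes. Slc31a1, the copper importer of the plasma membrane, fell by 0.47 (SE 0.09, adjusted p = 0.0079), with all 7 KO libraries below all WT libraries, and was the only call among 9 genes of copper handling. Commd1, a regulator of copper export, stood at 0.20 (SE 0.09, adjusted p = 0.170), and Atox1, a copper chaperone, at 0.21 (SE 0.10, adjusted p = 0.179). Of 13 genes of iron and manganese handling, 1 rose and 2 fell. Fth1, the ferritin heavy chain, rose by 0.53 (SE 0.16, adjusted p = 0.0471). Aco1, an iron-sensing RNA-binding protein, fell by 0.29 (SE 0.07, adjusted p = 0.0184), and Atp13a1, a membrane ATPase, fell by 0.25 (SE 0.07, adjusted p = 0.0457). The Fth1 call ended on leaving out WT replicate 1, 2, 4 or 5 or KO replicate 1, 3, 4 or 7 (adjusted p up to 0.12). That of Atp13a1 held without KO replicate 3 or 7 and ended without each of the other 10 libraries (up to 0.112), and that of Aco1 without WT replicate 2 (0.0530).

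Calls in the lists of the other signals known to raise metallothionein transcripts stand against 9.36% of all genes. Among 8 genes of the glucocorticoid response, limma called 1: Nr3c1, the receptor, fell by 0.36 (SE 0.10, adjusted p = 0.0417). Dusp1 stood at 0.54 (SE 0.19, adjusted p = 0.0910) and Tsc22d3 at -0.69 (SE 0.31, adjusted p = 0.180), both induced by glucocorticoids. Among 8 genes of the oxidative stress response, Nqo1, a quinone reductase, rose by 0.96 (SE 0.24, adjusted p = 0.0215) in 7 of 7 KO libraries, and Slc7a11, the cystine importer, fell by 1.02 (SE 0.29, adjusted p = 0.0464). Gclc, a glutathione synthesis enzyme, stood at -0.25 (SE 0.10, adjusted p = 0.116). Among 8 genes of interleukin-6 family signalling, 2 rose: Lif, a cytokine, by 2.82 (SE 0.41, adjusted p = 0.00217), and Stat3, its transducer, by 0.50 (SE 0.14, adjusted p = 0.0406). Lif was very low, with means of -2.08 log2 CPM in WT and 0.74 in KO. Nqo1 was also low, at -0.08 in WT and 0.88 in KO. Such levels rest on few reads, so the size of these 2 differences is uncertain. Jak2 stood at 0.32 (SE 0.11, adjusted p = 0.0770). The median difference was 0.05 over the glucocorticoid list, 0.15 over the oxidative list and 0.38 over the interleukin-6 list. Of the 8 genes in each, 4, 5 and 7 in turn had a positive difference. The part of these signals in the levels of Mt1 and Mt2 was not tested.

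Of these calls, that of Lif, a gene near the floor in WT, held without each of the 12 libraries in turn, and the others did not. The Nr3c1 call ended without any library except WT replicate 3 and KO replicates 5 and 6 (adjusted p up to 0.106), and that of Nqo1 without WT replicate 4 (0.0511). The Slc7a11 call ended on leaving out WT replicate 1, 2, 3 or 4 or KO replicate 1, 2, 4 or 7 (up to 0.112). The Stat3 call ended without any library except WT replicate 4 and KO replicates 5, 6 and 7 (up to 0.102), and Dusp1 was called without KO replicate 6 (0.0127). With the muscle markers as a covariate, 9 of the 11 called pathway genes lost their call, at adjusted p of 0.0533 to 0.181, the exceptions being Slc31a1 and Lif. The log2 differences of the 9 under this covariate were 0.53 for Csrp1, 0.49 for Sepw1, -0.28 for Aco1, -0.23 for Atp13a1, 0.50 for Fth1, -0.36 for Nr3c1, 0.84 for Nqo1, -0.74 for Slc7a11 and 0.43 for Stat3. Sepw1 thus moved by more than 1.5 times, and the other 8 by less.

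Genes near the metallothionein locus differed less than Mt1 and Mt2. Since Mt1 and Mt2 were chosen on this contrast, that comparison is a description only. Within 250 kb on each side of Mt2 and Mt1, 24 genes are annotated and 6 besides the pair had values. Their differences ran from -0.35 to 0.18 on the log2 scale. Limma called 1 of them, against 9.36% of all genes, namely Ogfod1, an oxygenase gene, which fell by 0.34 (SE 0.10, adjusted p = 0.0442). That call ended without any library except WT replicate 4 and KO replicates 1 and 6, at an adjusted p of up to 0.103. Nup93, a nuclear pore gene and the nearest downstream gene with values, stood at 0.18 (SE 0.17). At the other end of the range, Herpud1 stood at -0.35 (SE 0.13, adjusted p = 0.109).

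The spread among the 7 KO libraries does not enter the difference between the group means, so pairs of genes were tested there, by exact two-sided permutation of the pairings. None of the 11 pairs reached an adjusted p under 0.05, and 2 had an unadjusted p under 0.05. Mt1 and Mt2 varied in the same direction, with Pearson r = 0.866 (exact permutation p = 0.0117, adjusted p = 0.0644) and Spearman rho = 0.857 (exact permutation p = 0.0238, adjusted p = 0.125). Without KO replicates 2 and 3, the 2 libraries farthest from the Mt1 median, r was 0.781. Without KO replicate 4 the Mt1 and Mt2 pair had an adjusted p of 0.0306.

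The ZIP genes Slc39a14 and Slc39a8 varied in opposite directions among the KO libraries. Their r was -0.885 (exact permutation p = 0.00952, adjusted p = 0.0644) and rho was -0.919 (exact permutation p = 0.00635, adjusted p = 0.0698). Without KO replicates 3 and 4, r was -0.868. After cyclic loess normalization r was -0.895, with an adjusted p of 0.0240. The KO range of Slc39a14 behind this was narrow, 0.30 on the log2 scale.

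Pairs that join Mtf1 or its targets were less tight. Mt1 and Slc30a1 had r = 0.652 (exact permutation p = 0.137, adjusted p = 0.302) and rho = 0.821 (exact permutation p = 0.0341, adjusted p = 0.125), and r was 0.263 without KO replicates 2 and 3. This pair should be read with the gap between the 3 upper and 4 lower KO libraries of Slc30a1, which spans 49.3% of their range. Mt1 and Mtf1 had r = 0.359 (exact permutation p = 0.410, adjusted p = 0.632), rho = 0.50 (exact permutation p = 0.267, adjusted p = 0.367) and r = -0.381 without KO replicates 2 and 3. Mt2 and Slc30a1 had r = 0.293 (exact permutation p = 0.505, adjusted p = 0.632), rho = 0.50 (exact permutation p = 0.267, adjusted p = 0.367) and r = 0.01 without KO replicates 1 and 2.

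The milk zinc transporters Slc30a2 and Slc30a4 had r = 0.666 (exact permutation p = 0.104, adjusted p = 0.302), rho = 0.685 (exact permutation p = 0.0984, adjusted p = 0.271) and r = 0.838 without KO replicates 3 and 4. Mt1 and Slc30a2 had r = -0.510 (exact permutation p = 0.239, adjusted p = 0.438), rho = -0.607 (exact permutation p = 0.167, adjusted p = 0.306) and r = -0.249 without KO replicates 2 and 3. In both pairs r moved when KO replicate 3 or 4 alone was left out, although Slc30a2 and Slc30a4 kept r = 0.838 without both. These 2 libraries came from days 8 and 11, while the other KO glands came from day 10. The permutation test takes no account of lactation day. Without KO replicate 4, the lowest for Slc30a2, r was 0.920 and -0.914 (adjusted p = 0.0306 for both), and without KO replicate 3, the highest for Slc30a2, r was 0.355 and -0.235 (adjusted p = 0.812 and 0.863). Mt2 and the acute-phase gene Saa2 had r = 0.661 (exact permutation p = 0.110, adjusted p = 0.302), rho = 0.643 (exact permutation p = 0.139, adjusted p = 0.306) and r = 0.436 without KO replicates 1 and 2. The 3 pairs of Slc39a14 with Mt1, Mt2 and Saa2 had r of 0.162, 0.304 and 0.169 (exact permutation p = 0.736, 0.517 and 0.708, adjusted p = 0.736, 0.632 and 0.736) and rho of -0.04, 0.07 and 0.29 (exact permutation p = 0.963, 0.906 and 0.556, adjusted p = 0.963, 0.963 and 0.679). Without the 2 farthest libraries their r was -0.191, 0.513 and 0.138. With day 10 libraries alone r was -0.383 for Mt1 and -0.282 for Mt2. Leaving out 1 library took Mt1 to -0.422 (without KO replicate 3), Mt2 to 0.06 (KO replicate 3) and Saa2 to -0.173 (KO replicate 4). Each of the 3 pairs thus changed sign in at least 1 of these settings, though that with Saa2 changed little without the 2 farthest libraries.

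**Figure D5:**
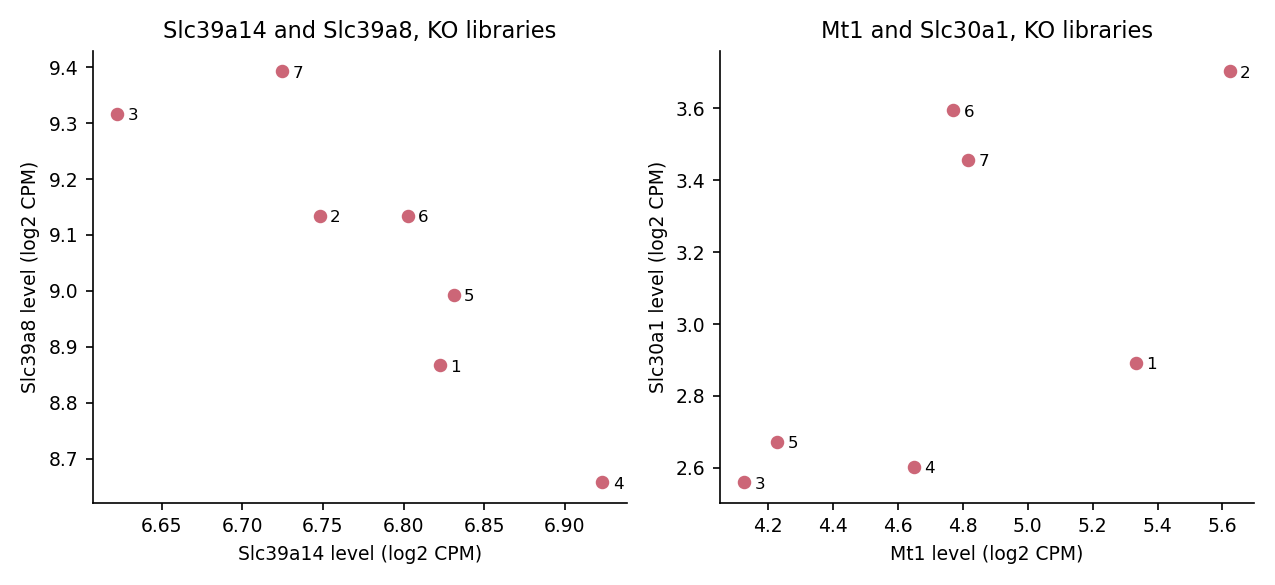
Levels in log2 CPM of Slc39a8 against Slc39a14 (left) and of Slc30a1 against Mt1 (right) in the 7 KO libraries, with replicate numbers beside the points. On the left, KO replicates 3 and 7 are high for Slc39a8 and low for Slc39a14 and replicate 4 is the reverse; on the right, replicates 2, 6 and 7 lie apart from the other 4 for Slc30a1.

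Over all 36 pairs of the 9 members, a family chosen after the data were seen, none passed at an adjusted p under 0.05 and 6 had an unadjusted p under 0.05. The pair with the smallest p, singled out after its value was seen, was Mt1 and Slc30a4, with r = -0.920 (exact permutation p = 0.00437, adjusted p = 0.140), rho = -0.937 (exact permutation p = 0.00476, adjusted p = 0.114) and r = -0.817 without KO replicates 2 and 3. KO replicate 3, from day 8, was lowest for Mt1 and highest for Slc30a4, and KO replicate 2 was the reverse.

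The genes whose pattern was most like that of a member were ranked by Pearson r of the deviations from the genotype means over the 12 libraries, out of all genes in the table, so a high r is built into the choice. For Mt1 they were Plscr1, a phospholipid scramblase gene (r = 0.890), Tsc22d1 (0.888) and Il4ra, the interleukin-4 receptor gene (0.886). For Mt2 they were F13a1, the clotting factor XIII A chain gene (0.928), Osmr, the oncostatin M receptor gene (0.925), and Clic1, an intracellular chloride channel gene (0.917). For Slc30a1 they were Eif5, a translation initiation factor gene (0.936), 2310057M21Rik (0.917) and Ankrd9 (0.881). For Slc30a2 they were Ahcyl2 (0.959), Hiat1 (0.958) and Mospd3 (0.951), and for Slc39a14 the immediate early gene Ier2 (0.904), Gm15500 (0.861) and Icosl (0.853). The likeness of Ankrd9 and Mospd3 came mostly from the KO libraries (r of 0.967 and 0.987, against 0.240 and 0.554 in WT), and that of Ier2 mostly from WT (0.990, against 0.538 in KO). The libraries share normalization and tissue composition, so these values describe likeness in these glands only.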

How the data were processed

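PolyA RNA libraries of 12 glands were analysed from 1 deposited table of 11834 genes. The authors deposited log2 CPM per library, with their own log2 fold change, a score that is their moderated t statistic, and their p-value with its adjusted p-value. Per the labels' protocols, mRNA was prepared with the TruSeq kit of Illumina for paired reads. The submitters' processing notes list RSEM 1.3.0, STAR 2.5.2b, limma 3.34.5, Trimmomatic 0.33 and bcl2fastq 2.17, and the builds hg19 and mm10, without their roles. The annotation, strand setting and gene filter are each not given in the sources used here. Deposited values had been quantile-normalized: 67.1% of ranks agreed within 0.01 log2 across libraries, and library sums ran from 988803 to 988808 CPM. Normalization makes depth estimates rough, and no counting interval is given.

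The log2 values were fitted by genotype with limma 3.58.1 in R 4.3.3 (eBayes with trend and robust options). Benjamini-Hochberg adjustment ran over all 11834 genes, with calls made at adjusted p-values under 0.05. SE is that of the fit and SD that between libraries. The fit was tested on simulated data with known changes. Correlations used exact two-sided permutation, adjusted over 11 pairs. The members, lists, pairs and alternatives were chosen with earlier results of these data known. The rule for named genes took the members, every other zinc transporter with values, up to 3 genes of smallest adjusted p per list, Btn1a1, and the 3 genes most like each of 5 members in pattern. Ogfod1, Nup93 and Herpud1 near the metallothionein locus, and called genes beyond those 3, are named outside that rule, after their values were seen, as were the antioxidant and Stat motifs. Genes were placed by symbol on GENCODE M21 (mm10), promoters are from RefSeq (GRCm38.p6), and Python 3.11.15 with matplotlib 3.10.9 drew the figures. Dixon's ratio (95% level) marked no library as outlying in 18 groups of member values. Nothing shows that replicate numbers pair mice, and each library is 1 mouse per the labels. The alternatives tried were other designs, normalizations, filters, variance models, a muscle covariate, leaving out each library, and the authors' statistics.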

Additional observations from a re-analysis of the deposited data

How the results depend on the processing

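The fit called 1108 genes. This became 268 on day 10 alone (3 WT and 5 KO libraries) and 306 with the muscle markers as a covariate, and it ran from 559 (without WT replicate 1) to 1327 (without KO replicate 6) when 1 library was left out. Of the leave-outs, those without WT replicates 1, 2, 3 or 5 or KO replicate 1 gave fewer than 1108 by more than 1.5 times (for these in turn 559, 644, 725, 696 and 724). The authors' statistics called 1141, with 539 higher and 602 lower, against 573 and 535 here, and cyclic loess gave 653 and 481. The count of members past the threshold, 2, was 1 with a replicate block and 1 with day 10 libraries alone, with Mt2 remaining and Mt1 not in both, although the Mt1 difference was 1.53 and 1.60 in these fits against 1.53. It was 2 in every fit that left out 1 library. The log2 difference ran from 1.34 to 1.67 for Mt1 and from 3.13 to 3.57 for Mt2 over these leave-outs. Among other zinc transporters, the count of 0 became 1, Slc39a10, with lactation day as a covariate and stayed 0 in all leave-outs. Among the pairs within KO, 0 became 1 after cyclic loess and ran from 0 to 3 when 1 KO library was left out, with 3 without KO replicate 4. The cause was not tested for any of these. Replicate numbers 1 to 5 occur in both groups, but same-numbered libraries had correlations of deviations from -0.17 to 0.21, so they share a number only. The replicate block on these 10 libraries gave 1090 calls, against 1286 for the same libraries without it, a fit added after the data were seen. Of the 11 calls in pathway lists, 6 (Csrp1, Aco1, Atp13a1, Fth1, Nr3c1 and Slc7a11) ended under the block and 8 with day 10 libraries alone, at adjusted p of up to 0.110 and 0.274. A stricter filter, median centring, library weights and eBayes without its options kept the count of genes called within 1.5 times (897 to 1332). A fit with no filter, and pseudocounts, do not apply to these deposited log2 values. Low levels such as those of Mt2, Lif and Nqo1 in WT rest on few reads, and read counts were not used here.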
